A study of Danio rerio with 11 samples.

Results

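Stepwise genes were those whose RNA level changed in the same direction at both of 2 steps, first from wild-type to heterozygous melanocytes and then from heterozygous melanocytes to melanoma. A gene was taken as rising where every heterozygous library lay above every wild-type library, every melanoma library lay above every heterozygous library, the group means were at least 1.5-fold apart at each step and the melanoma mean was at least 10 CPM (the gene's reads scaled to the library total, as the authors deposited them). Falling genes met the same conditions reversed, with a wild-type mean of at least 10 CPM. Of 24441 genes in the table, 188 were rising and 56 were falling. Because these values chose the genes, the levels and folds of the 188 and 56 are given as a description and carry no test.

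RNA was sequenced from 11 samples of cells sorted from adult zebrafish. MC_WT were mCherry-positive skin melanocytes of 3 AB* fish labelled mitfa:mCherry, a reporter carried on the MiniCoopR vector, which also holds a *mitfa* minigene. MC_Het were mCherry-positive skin melanocytes of 3 fish labelled BRAFV600E/+/p53+/lf/mitfa+/-/mitfa:mCherry, in which the oncogene is driven by the *mitfa* promoter. MA were GFP-positive cells of 5 tumors labelled BRAFV600E/p53lf/lf/crestin:EGFP, of which MA1 and MA2 stand for 1 fish each, while MA3A, MA3B and MA3C are separate tumors of a single animal. MC_Het thus differed from MC_WT in *mitfa* dosage as well as in the other alleles of its label. Per the methods, MC_Het fish came from a cross of the mitfa:mCherry line to a line carrying the *BRAF*, *p53* and *mitfa* alleles. Their genetic background may therefore have differed too. MA differed from both in tissue, reporter and sorting gate. These differences cannot be told apart from the genotype at either step. Values of MC_WT and MC_Het below are in the order of replicates 1 to 3, and those of MA in the order MA1, MA2, MA3A, MA3B and MA3C.

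As background, melanocytes are the pigment cells that descend from the neural crest under the transcription factor *mitfa*, and in zebrafish a *BRAF* oncogene expressed in them gives benign naevi and, with further lesions, melanoma. A gene that moves at both steps is here one whose level in the sorted MC_Het samples lies between that of the MC_WT samples and that of the MA samples. In a bulk sample of sorted cells, a smaller share of cells of a given type and less RNA per cell cannot be told apart.

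Library totals recovered from the table were 14718024 to 22612463 reads, so a single read was worth 0.0442 to 0.0679 CPM. The deposited CPM were not centred between melanocytes and melanoma. Over the 14706 genes that reached 1 CPM in 3 or more libraries, the median log2 change from MC_Het to MA was 0.52 on the CPM as deposited and 0.03 after rescaling by the median of ratios, the scaling that DESeq2 uses. From MC_WT to MC_Het it was 0.09 and 0.00. The melanocyte master regulator *mitfa* read 15, 24.2 and 29.1 CPM in MC_WT, 30.6, 10.3 and 2.99 CPM in MC_Het and 208, 188, 226, 175 and 212 CPM in MA, and *sox10*, its activator in the neural crest, read 21.3, 48.4 and 22, 65.6, 25.1 and 3.22 and 779, 833, 599.9, 849 and 534 CPM. MC_Het3 had the lowest values of both, and the melanoma libraries lay above all melanocyte libraries in both. Markers of other skin cells were abundant in the sorted melanocytes: the summed CPM of 20 keratinocyte markers were 62276 to 85634 in MC_WT, 50437 to 81576 in MC_Het and 1953 to 6668 in MA, with *krt5* the most abundant in both melanocyte groups (38258 and 24979 CPM). Summed CPM of 22 leukocyte markers were 1694 to 2812, 1796 to 2238 and 150.0 to 629. None of the keratinocyte or leukocyte markers was at 0 throughout a group.

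The 2 steps of the rule were unequal filters. Among 7880 genes with an MA mean of at least 10 CPM, 629 (7.98%) met the first rising step, 3719 (47.2%) met the second, whether or not they met the other, and 188 (2.39%) met both. Among 6836 genes with an MC_WT mean of at least 10 CPM, 413 (6.04%) met the first falling step, 1556 (22.8%) the second and 56 (0.819%) both. The step from wild-type to heterozygous melanocytes was therefore the one that few genes passed. In rising genes the first step had a median fold of 2.07 (1.51 to 89.5) and the second a median fold of 3.01 (1.52 to 177). In falling genes these were 1.99 (1.51 to 14.3) and 8.76 (1.85 to 189). The second step was the larger in 137 of 188 rising and 51 of 56 falling genes. Both steps reached 2-fold in 88 rising and 26 falling genes, and 4-fold in 21 and 4.

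**Figure D1:**
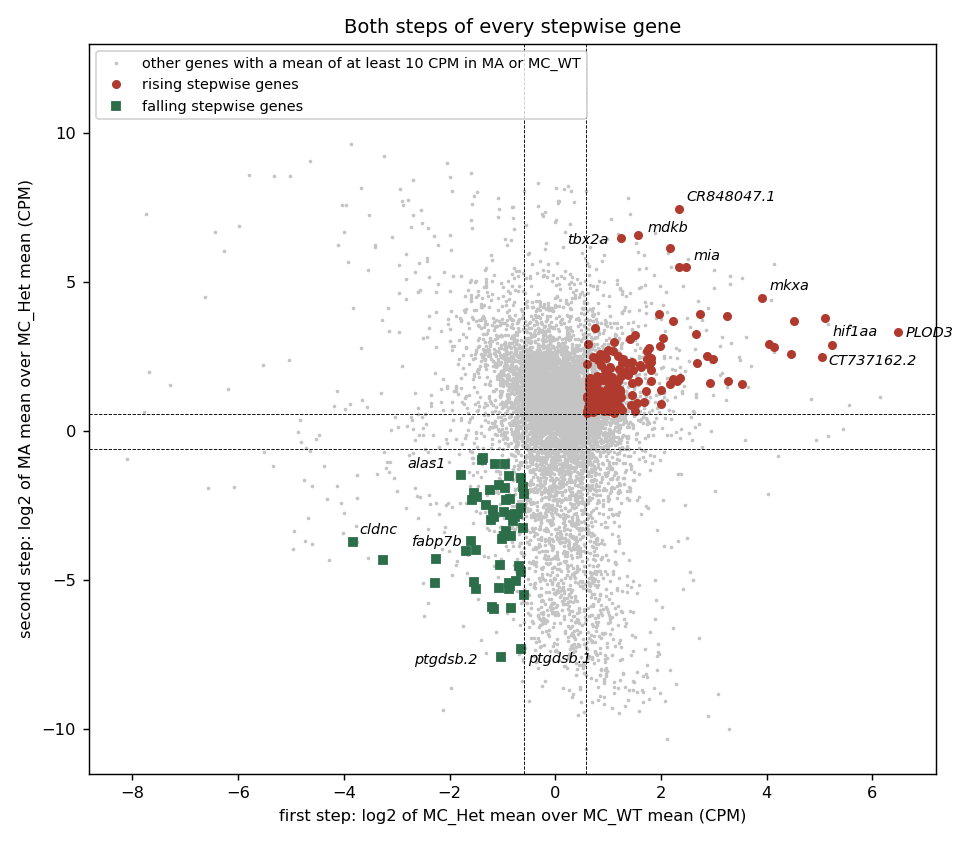
Each point is a gene, with the log2 ratio of the MC_Het to the MC_WT mean on the x axis and that of the MA to the MC_Het mean on the y axis, both in CPM as deposited; dashed lines mark 1.5-fold. The 188 rising genes (red circles) fill the upper right corner, most of them close to the first-step line, and the 56 falling genes (green squares) extend further along the second step than along the first.

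The groups could lie in 6 orders, and the same conditions were applied to each. On the CPM as deposited, 188 genes lay in the order MC_WT, MC_Het, MA from low to high and 152 had MC_Het lowest, MC_WT in the middle and MA highest. With MA lowest, 182 genes had MC_WT in the middle and MC_Het highest, against the 56 falling genes. Orders with MA in the middle held 0 and 3 genes. After median-of-ratios rescaling, the 4 orders with MA at an end held 69, 95, 196 and 125 genes in the same sequence. Genes with MA at an end and a clear difference between the melanocyte genotypes thus lay in both melanocyte orders, and the stepwise order was the larger of the pair only for the rising genes on the CPM as deposited.

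The scaling bore on the 2 directions unequally. With median-of-ratios rescaling 69 genes were rising, 67 of them among the 188 (35.6%), and 125 were falling, among them 54 of the 56 (96.4%). Scaling by the 75th percentile gave 78 rising and 131 falling genes, and TMM factors of edgeR gave 71 and 126. In all 4 scalings, 61 rising and 54 falling genes met the rule. Of the 121 rising genes lost with the median of ratios, 75 no longer met the second step alone, 15 the first alone, 27 neither step and 4 only the minimum level, and the 2 falling genes lost no longer met the first step. *PAXBP1*, a binding partner of PAX3 and PAX7 in mammals, read 10.9, 17.6 and 11.6 CPM in MC_WT, 21.6, 18.5 and 20.6 CPM in MC_Het and 28.9, 31.5, 32.6, 35.8 and 24.9 CPM in MA, a fold of 1.52 at the second step on the CPM as deposited. On the rescaled values the log2 ratio of MA to MC_Het was -0.02, and with the 75th percentile 0.20. The genes described below were kept with the median of ratios unless stated.

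Close to the threshold, the 3 rising genes with the smallest lesser step were *PAXBP1*, *strn3* (18.8, 28.4 and 45.2 CPM in MC_WT, MC_Het and MA, a striatin of phosphatase complexes) and *si:ch73-308l14.2* (12.3, 18.6 and 40.2 CPM, now named tcof1). Just outside, *arl4d* (62.1, 92.9 and 229.9 CPM), *zbtb2b* (18, 26.9 and 43.7 CPM), a zinc finger protein, and *spry2* (28.8, 42.9 and 346 CPM, an inhibitor of receptor tyrosine kinase signalling that ERK induces) met every condition except the 1.5-fold first step. On the falling side *ccr12a* (15.3, 10.1 and 2.77 CPM, a chemokine receptor), *gdpd2* (72, 47.6 and 1.04 CPM) and *hsd17b14* (40.8, 27.1 and 6.34 CPM) were just inside. The genes just outside were *tmem176l.4* (519.7, 347 and 22.9 CPM) and the chemokine receptor *cxcr3.1* (15.9, 10.9 and 1.1 CPM), which missed the first step, and *ube2al* (342, 132 and 89.6 CPM), which missed the second. Of these 6 on the inside, the 3 rising genes were lost with the median of ratios and the 3 falling genes were kept.

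The largest lesser steps among the rising genes were those of *mkxa* and *hif1aa*, both transcription factors. *mkxa* (ENSDARG00000075450), a homeobox factor known in mammals from tendon development, read 0.10, 0.215 and 0.14 CPM in MC_WT, 6.36, 0.272 and 0.222 CPM in MC_Het and 91.3, 30.7, 60.8, 57.7 and 15.4 CPM in MA. The MC_Het value rested on MC_Het1, since MC_Het2 and MC_Het3 lay just above the highest MC_WT library. A single read was worth 0.0537 CPM in MC_WT2, 0.0679 CPM in MC_Het2 and 0.0555 CPM in MC_Het3. MC_WT2, MC_Het2 and MC_Het3 thus held the same number of *mkxa* reads, and only the library totals set them apart. Without MC_Het1 the log2 ratio of the first step was 0.70 in place of 3.91. Second came *hif1aa* (ENSDARG00000006181), an alpha subunit of the hypoxia-inducible factor, which read 0.10, 0.0537 and 0.0467 CPM in MC_WT, 2.1, 2.31 and 2.5 CPM in MC_Het and 42.1, 34, 51.9, 9.44 and 22.9 CPM in MA. Here the 3 MC_Het libraries lay close together, far above 4 reads over the 3 MC_WT libraries, and every tumor was higher again, which gave folds of 34.4 and 13.9. *alx4a* (ENSDARG00000088332), a homeobox factor used as an iridophore marker in zebrafish, read 11.7, 9.77 and 7.85 CPM in MC_WT, 21.7, 23.1 and 13.6 CPM in MC_Het and 109, 142, 86, 159 and 150.4 CPM in MA, that is 1.99-fold and 6.65-fold. MC_Het3 was the library nearest to MC_WT, and *alx4a* was lost on rescaling because the first step was then not met. It was the sole stepwise gene among 13 iridophore markers, whose summed CPM were 96.9 to 379.6 in MC_WT, 216 to 612 in MC_Het and 404 to 714 in MA. The share of iridophores in the sorted cells was not tested.

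The rising genes with the highest levels in melanoma include secreted factors and a cell cycle kinase. Highest was *zgc:91968* (ENSDARG00000011076), a gene without a name in the table, with 46.4, 165 and 108 CPM in MC_WT, 687, 611 and 198 CPM in MC_Het and 1763, 1279, 2166, 1223 and 2002 CPM in MA. Its folds were 4.69 and 3.38, and MC_Het3 lay nearer to MC_WT than the other 2 MC_Het libraries did. *mdkb* (ENSDARG00000020708), a copy of the heparin-binding growth factor midkine, read 2.8, 3.81 and 3.88 CPM in MC_WT, 19.4, 4.14 and 7.65 CPM in MC_Het and 1650.2, 77.4, 1839, 473 and 925 CPM in MA. Its second step (95.6-fold) was far larger than its first (2.97-fold), with MC_Het2 just above the highest MC_WT library, and on rescaling its first step was not met. *mia* (ENSDARG00000052437), a small secreted protein known as a serum marker of human melanoma, read 3.1, 3.65 and 2.71 CPM in MC_WT, 32.8, 14.7 and 5.16 CPM in MC_Het and 1905, 52.5, 219, 1408 and 417 CPM in MA. The means of *mia* were 5.56-fold and 45.6-fold apart, and its tumors ranged from 52.5 CPM in MA2 to 1905 CPM in MA1. *cdk6* (ENSDARG00000070228), a kinase that cyclin D activates to start the cell cycle, read 23.6, 60.4 and 72.1 CPM in MC_WT, 130.4, 97.2 and 107 CPM in MC_Het and 643, 566, 1312, 693 and 375 CPM in MA, folds of 2.14 and 6.44. Per kilobase of gene length, *mia* was the most abundant of the rising genes in melanoma, at 6.51, 36.2 and 1650.1 RPKM in MC_WT, MC_Het and MA, followed by *zgc:91968* (57, 267 and 904 RPKM) and *mdkb* (3.18, 9.44 and 903 RPKM).

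**Figure D2:**
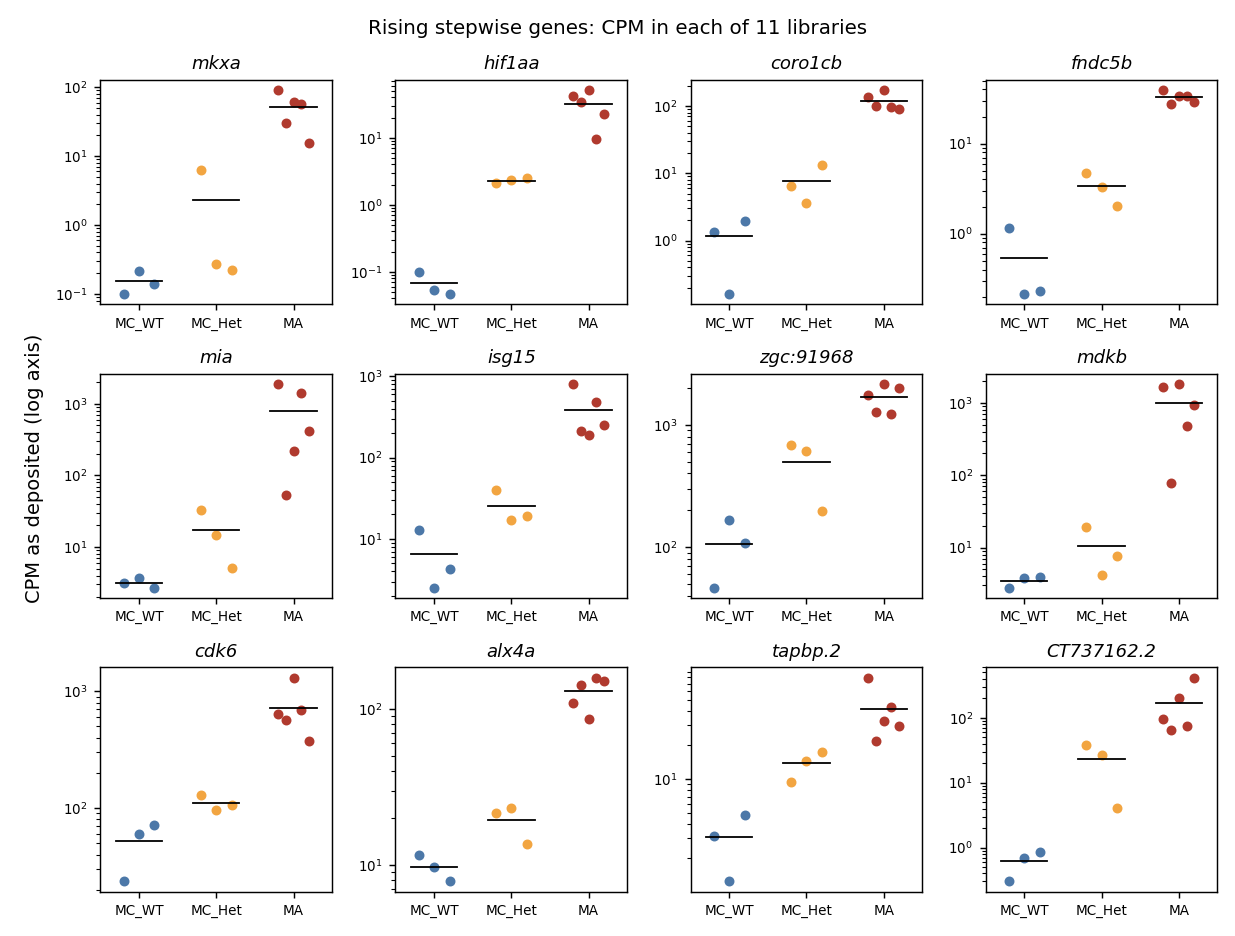
CPM as deposited, on log axes, of 12 rising genes in the 3 MC_WT (blue), 3 MC_Het (orange) and 5 MA (red) libraries, each point a library and each bar a group mean. In every panel the groups do not overlap, as the rule requires; *mkxa* has 2 of its 3 MC_Het points beside MC_WT, whereas the 3 MC_Het points of *hif1aa* lie together between 2.1 and 2.5 CPM.

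Other rising genes with large lesser steps included enzymes and surface proteins. *coro1cb* (ENSDARG00000021193), a coronin that binds actin, read 1.35, 0.161 and 1.96 CPM in MC_WT, 6.47, 3.6 and 13.1 CPM in MC_Het and 134, 99.4, 174, 97.2 and 91.8 CPM in MA, folds of 6.68 and 15.4. *alkbh2*, which repairs alkylated DNA, read 0.149 ± 0.132 CPM in MC_WT, 2.64 ± 0.64 CPM in MC_Het and 18.5 ± 8.86 CPM in MA (SD, n = 3, 3 and 5 here and below). *fndc5b*, a membrane protein with a fibronectin domain, read 0.533 ± 0.535 CPM in MC_WT, 3.37 ± 1.34 CPM in MC_Het and 32.7 ± 4.7 CPM in MA. In each of these genes the lowest tumor lay well above the highest MC_Het library. *b4galnt1b*, a transferase of ganglioside synthesis, read 0.112 ± 0.105 CPM in MC_WT, 1.06 ± 0.569 CPM in MC_Het and 15.7 ± 8.41 CPM in MA. *lrfn4a*, a leucine-rich adhesion protein, read 0.098 ± 0.0433 CPM in MC_WT, 1.61 ± 1.41 CPM in MC_Het and 12.4 ± 5.34 CPM in MA, and *odf2b*, a protein of centriolar appendages, read 0.0692 ± 0.060 CPM in MC_WT, 2.28 ± 1.27 CPM in MC_Het and 12.7 ± 6.49 CPM in MA. MC_WT held 7, 6 and 4 reads of these over its 3 libraries, and *lrfn4a* and *odf2b* missed the minimum of 10 CPM in MA on rescaling. The nearest libraries at the first step were 0.234 CPM in MC_WT3 and 0.408 CPM in MC_Het2 for *b4galnt1b*. For *lrfn4a* they were 0.140 CPM in MC_WT3 and 0.166 CPM in MC_Het3, which held the same number of reads.

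In 3 rising genes MC_WT held 3 reads or fewer, so the first step has only a counting interval. *cacnb4b*, a beta subunit of voltage-gated calcium channels, had 3 reads in MC_WT and 62 in MC_Het, a depth-corrected ratio of 24.8 (95% exact binomial interval 8.12 to 124). Of these 62 reads most came from MC_Het1, where it read 3.32 CPM against 0.136 and 0.166 CPM in the other 2. MC_WT2, at 0.107 CPM, held as many *cacnb4b* reads as MC_Het2, and only the library totals set them apart. *PLOD3*, the human symbol of a collagen lysyl hydroxylase, had 1 read in MC_WT and 79 in MC_Het, a ratio of 95 (16.6 to 3799). The lincRNA *CR848047.1* had 1 and 4 reads, a ratio of 4.81 whose interval (0.476 to 237) includes equality, and its second step rested on 1349 reads in MA. MC_WT3, MC_Het1 and MC_Het2 held the same number of its reads. Over all rising genes, 23 of 188 had an MC_WT mean under 1 CPM. Intervals here pool the reads of each group and cover counting error only, since amplified reads are not independent molecules. They leave out the spread between libraries, and the genes were chosen by this same step. The intervals therefore carry no test of a group difference.

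Among the rising genes without a gene name, *CT737162.2* (ENSDARG00000097235), annotated as an antisense RNA, read 0.30, 0.698 and 0.841 CPM in MC_WT, 38.7, 26.8 and 4.1 CPM in MC_Het and 97, 65.3, 201, 75.3 and 418 CPM in MA. The steps were 37.9-fold and 7.38-fold, and MC_Het1 and MC_Het2 were several-fold above MC_Het3. Strand is not stated for the counting, so its reads cannot be told from those of the gene on the other strand. The other such gene named by the rule for large steps was *si:ch73-168d20.1*, with 0.119 ± 0.0854 CPM in MC_WT, 2.63 ± 0.698 CPM in MC_Het and 15.8 ± 5.85 CPM in MA. Of the 188 rising genes 186 were annotated as protein coding, and 21 had no gene name.

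Immune genes among the rising members were few. *isg15* (ENSDARG00000086374), a ubiquitin-like modifier induced by interferon, read 12.9, 2.52 and 4.3 CPM in MC_WT, 39.8, 17.3 and 19.4 CPM in MC_Het and 809, 212, 190.0, 479 and 252 CPM in MA, folds of 3.89 and 15.2. Its groups did not overlap, and the MC_WT libraries spanned 2.52 to 12.9 CPM. It was the 1 stepwise gene of 17 in the interferon list. *tapbp.2* (ENSDARG00000045011), a tandem copy of tapasin, which helps peptides onto MHC class I, read 3.15, 1.24 and 4.77 CPM in MC_WT, 9.39, 14.6 and 17.5 CPM in MC_Het and 79.6, 21.8, 32.7, 43.5 and 29.7 CPM in MA. On rescaling its second step was not met, and reads shared with its tandem copy may have been divided between them. Of the 22 other antigen presentation genes tested, 4 were called lower in MC_Het than MC_WT, 8 higher and 4 lower in MA than MC_Het (limma, adjusted p under 0.05 and a log2 change above 1). Shares over all 14706 genes tested were 0.571% lower in MC_Het, 0.864% higher in MC_Het, 18.1% higher in MA and 24.2% lower in MA.

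Some rising genes belonged to a common complex or process, a grouping made after their values were seen and given without a test. Over all genes with an MA mean of at least 10 CPM, 2.39% were rising, a share that cannot test families picked for their rising members. In MC_Het over MC_WT limma called 0.864% of all genes tested higher and 0.571% lower. Of the same 14706 genes, edgeR called 24 higher and 12 lower, and DESeq2 253 and 253. The share of all genes at an unadjusted p under 0.05 was not counted, so such counts here and below have no background. Of 24 nucleoporins, which form the nuclear pore, 4 were rising: *seh1l* (32.6, 57.3 and 298 CPM in MC_WT, MC_Het and MA), *nup210* (3.11, 7.14 and 30.6 CPM), *nup35* (4.54, 10.7 and 38.7 CPM) and *nup160* (17.6, 33.4 and 66.7 CPM). Among the other 20 tested, 0 were called by limma in either direction in MC_Het over MC_WT (0 at an unadjusted p under 0.05, and 0 by edgeR and by DESeq2), and 3 were called higher and 0 lower in MA over MC_Het, where 18.1% of all genes tested were called higher and 24.2% lower. Of 40 enzymes that modify transfer RNA, 6 were rising: *trit1* (5.23, 14.3 and 43.6 CPM), *trmt61a* (7.21, 15.4 and 46.9 CPM), *osgep* (5.83, 12.9 and 37.8 CPM), *kti12* (3.84, 8.24 and 25.6 CPM), *tyw3* (4.82, 8.6 and 15.2 CPM) and *trmo* (3.72, 7.1 and 12.8 CPM). The other 33 tested had 0 calls in MC_Het over MC_WT (3 at an unadjusted p under 0.05, 0 by edgeR and 1 by DESeq2). In MA over MC_Het 6 of the 33 were called higher, near the 18.1% of all genes. Called lower were 2 of the 33, a smaller share than the 24.2% of all genes. Of 7 subunits of the HOPS and CORVET complexes, which tether endosomes to lysosomes, *vps16* (19.8, 37.8 and 90.2 CPM) and *vps18* (15, 27.1 and 61.8 CPM) were rising, and 2 of the other 5 were called higher in MA. The pore genes *seh1l*, *nup210* and *nup35* and the enzymes *trit1*, *trmt61a*, *osgep* and *kti12* were kept with the median of ratios, while *nup160*, *tyw3*, *trmo*, *vps16* and *vps18* were not.

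Further rising genes, also picked after their values were seen, were mostly low in melanocytes. Some of them have known roles in pigment or neural crest cells or in oncogene signalling. *tbx2a*, a T-box factor of pigment cells, read 0.651, 0.698 and 0.421 CPM in MC_WT, 1.63, 1.7 and 0.887 CPM in MC_Het and 177, 278, 56.8, 73.8 and 38.1 CPM in MA. Its first step was 2.38-fold at 35 and 69 reads, and its second 88.8-fold. *kctd15a*, an inhibitor of the neural crest factor AP-2, read 2.37 ± 1.15 CPM in MC_WT, 5.78 ± 0.172 CPM in MC_Het and 31 ± 17.5 CPM in MA. *gucy2c*, a membrane guanylate cyclase, read 0.455 ± 0.162 CPM in MC_WT, 2.3 ± 1.46 CPM in MC_Het and 106 ± 50.8 CPM in MA, and *cart3*, a neuropeptide precursor, read 0.576 ± 0.248 CPM in MC_WT, 2.59 ± 1.78 CPM in MC_Het and 186 ± 88.6 CPM in MA. MC_WT and MC_Het of *cart3* nearly touched, at 0.841 CPM in MC_WT3 and 0.887 CPM in MC_Het3. The signalling genes *erf*, a repressor that ERK phosphorylates (30.1, 51.8 and 88.9 CPM), *cblb*, an E3 ligase of receptor kinases (18.6, 28.5 and 217 CPM), *stk11*, an activator of AMP kinase (14.1, 25.1 and 54.6 CPM), and the phosphatase *ppm1da* (3.97, 7.79 and 31.7 CPM) had first steps below 2-fold. Of these, *erf*, *cblb* and *stk11* were lost on rescaling.

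Among the falling genes were 3 claudins, membrane proteins of tight junctions between epithelial cells. *cldnc* (ENSDARG00000015955) had the largest lesser step, at 22.5, 6.23 and 12.2 CPM in MC_WT, 0.991, 0.883 and 0.998 CPM in MC_Het and 0, 0, 0, 0.101 and 0.265 CPM in MA. MC_WT held 828 reads, MC_Het 48 and MA 8, and 3 of 5 tumors were at 0. *cldni* (ENSDARG00000054616), also a keratinocyte marker, was among the 4 most abundant falling genes at 3956, 2443 and 4078 CPM in MC_WT, 1743, 1755 and 1092 CPM in MC_Het and 17.4, 6.58, 65.6, 27.9 and 10.3 CPM in MA, 2.28-fold lower in MC_Het and then 59.9-fold lower in MA. A further claudin, *cldn1* (named after its values were seen), read 151 ± 39.4 CPM in MC_WT, 67.2 ± 4.77 CPM in MC_Het and 1.08 ± 1.72 CPM in MA. The MC_Het libraries of *cldnc* and *cldn1* lay close together. Over the 18 other keratinocyte markers tested, 1 was called higher in MC_Het than MC_WT (*krt1-c5*) and 0 were called lower. Over all genes tested these shares were 0.864% and 0.571%, so a count of 0 among 18 is near them. In MA over MC_Het 17 of them were called lower, where 24.2% of all genes tested were. The summed keratinocyte level of MC_WT and MC_Het overlapped, as given above; its part in the lower claudin levels was not tested.

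Lipid carriers and enzymes were the most abundant falling genes. *ptgdsb.1* (ENSDARG00000027088), a lipocalin-type prostaglandin D2 synthase, read 22858, 16542 and 22091 CPM in MC_WT, 8996, 15686 and 14410.3 CPM in MC_Het and 91.6, 44.5, 88, 93.9 and 92.5 CPM in MA. The steps were 1.57-fold and 159-fold. Its neighbour and tandem copy *ptgdsb.2* (ENSDARG00000071626) read 5939, 4661 and 5447 CPM in MC_WT, 2259.9, 3069 and 2553 CPM in MC_Het and 13.4, 9.46, 14.2, 15.3 and 16.8 CPM in MA, steps of 2.04-fold and 189-fold. Reads that match both copies may have been divided between them, and *ptgdsb.1* was lost on rescaling because the first step was then not met. *apoeb* (ENSDARG00000040295), a lipid-carrying apolipoprotein, read 6036, 9250.3 and 4484 CPM in MC_WT, 2444, 4145 and 4170.4 CPM in MC_Het and 44.6, 13.1, 79.6, 62.6 and 253 CPM in MA. MC_WT and MC_Het of *apoeb* were nearly touching, at 4484 CPM in MC_WT3 and 4170.4 CPM in MC_Het3, while the second step was 39.6-fold. *fabp7b* (ENSDARG00000034650), a fatty acid binding protein of glia and neural crest cells, read 26.5, 65.8 and 56.5 CPM in MC_WT, 17.7, 10.6 and 3.05 CPM in MC_Het and 1.26, 0.103, 0.776, 0.353 and 0.177 CPM in MA. Per kilobase of gene length, *ptgdsb.1* (19919.5, 12664 and 79.8 RPKM in MC_WT, MC_Het and MA) and *ptgdsb.2* (4299.9, 2112 and 11.1 RPKM) were the most abundant of the falling genes, followed by *apoeb* (3115, 1695 and 42.8 RPKM).

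**Figure D3:**
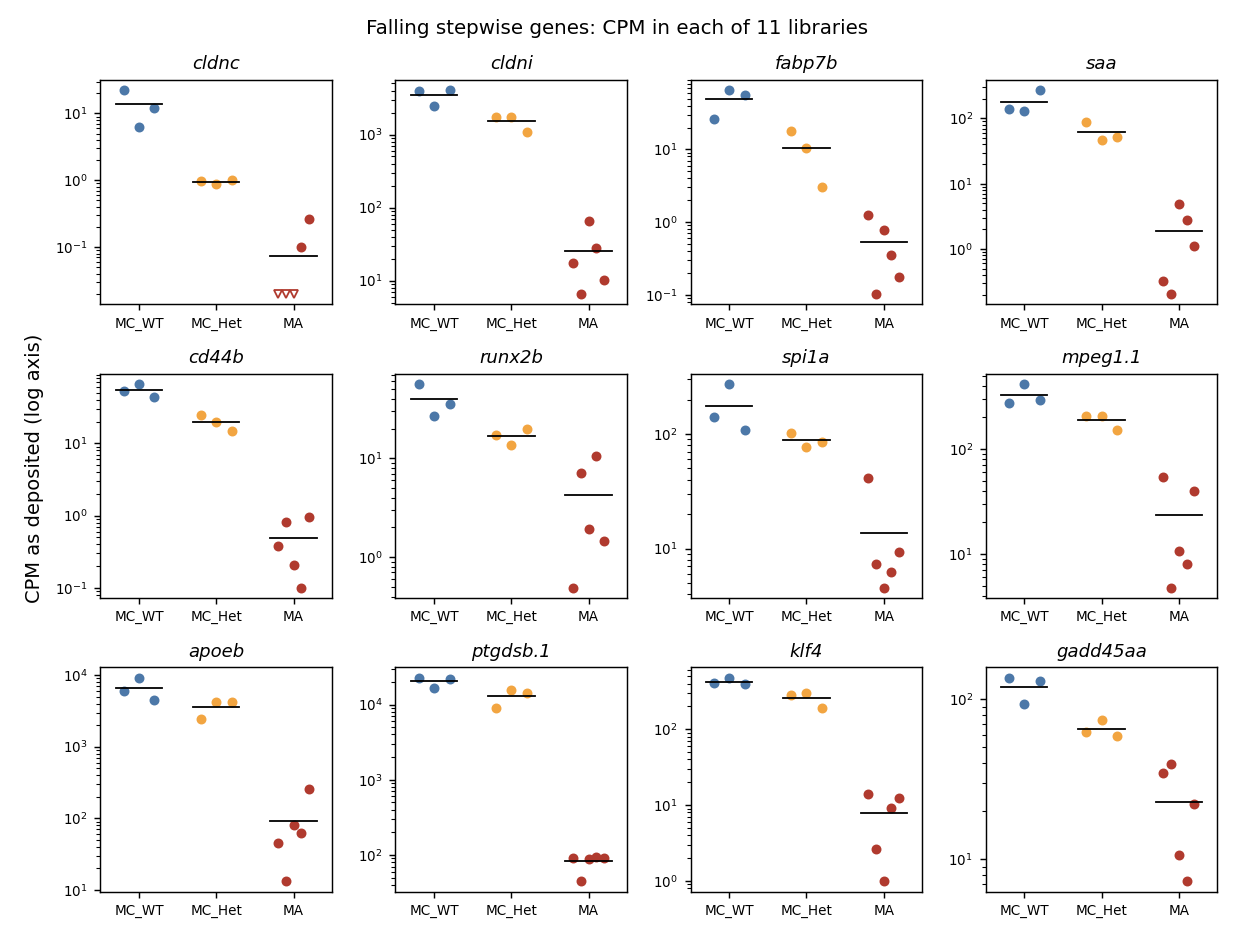
CPM as deposited, on log axes, of 12 falling genes in the same libraries and colours, with bars at group means and open triangles, at the bottom of the axis, for libraries at 0. The drop from MC_Het to MA is the larger of the steps in all panels except *cldnc*; for *apoeb* the lowest MC_WT and highest MC_Het points nearly touch.

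Leukocyte genes formed the largest group of falling genes from any list. Of 22 leukocyte markers, 3 were falling, where 0.819% of the genes with an MC_WT mean of at least 10 CPM were. *spi1a* (ENSDARG00000067797), a copy of the myeloid factor PU.1, read 141, 275 and 108 CPM in MC_WT, 103, 77 and 86 CPM in MC_Het and 40.9, 7.35, 4.56, 6.21 and 9.24 CPM in MA. MC_WT3 and MC_Het1 were only slightly apart, and MA1 stood above the other tumors. *mpeg1.1* (ENSDARG00000055290), a pore-forming protein of macrophages, read 272, 418 and 292 CPM in MC_WT, 204, 206 and 151 CPM in MC_Het and 53.8, 4.78, 10.8, 8.08 and 39.4 CPM in MA. *rac2* (ENSDARG00000038010), a small GTPase of blood cells, read 149, 159 and 130.3 CPM in MC_WT, 80.9, 102 and 77.5 CPM in MC_Het and 20.7, 9.93, 10.2, 6.56 and 10.9 CPM in MA. The nearest libraries at the first step were 272 CPM in MC_WT1 and 206 CPM in MC_Het2 for *mpeg1.1*. For *rac2* they were 130.3 CPM in MC_WT3 and 102 CPM in MC_Het2. Of the 19 other leukocyte markers tested, 0 were called by limma in MC_Het over MC_WT in either direction (3 at an unadjusted p under 0.05, 0 by edgeR and 2 by DESeq2). DESeq2 called 253 higher and 253 lower at that step over all 14706 genes. Over all genes tested 0.864% were called higher and 0.571% lower at that step. In MA over MC_Het 13 were called lower, where 24.2% of all genes tested were. The summed leukocyte level overlapped between MC_WT and MC_Het. That sum is weighted by its most abundant marker, *cxcr4b*, with a mean of 439 CPM in MC_WT and 754 CPM in MC_Het. The median log2 change of the 19 others from MC_WT to MC_Het was -0.09. The number of leukocytes in the sorted cells was not tested.

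Other falling genes named for the size of their steps included some known from blood cells. *pstpip2*, an adaptor that bends membranes in macrophages of mammals, read 31.8 ± 15.7 CPM in MC_WT, 10.9 ± 5.55 CPM in MC_Het and 2.6 ± 1.37 CPM in MA. *arhgap15*, which turns off Rac, read 11.4 ± 4.53 CPM in MC_WT, 4.11 ± 1.5 CPM in MC_Het and 0.883 ± 0.456 CPM in MA, and *ms4a17a.7*, a membrane protein with 4 spans, read 19.1 ± 5.4 CPM in MC_WT, 5.9 ± 1.51 CPM in MC_Het and 0.366 ± 0.652 CPM in MA. *saa* (ENSDARG00000045999), the acute-phase protein serum amyloid A, read 139.6, 132 and 274 CPM in MC_WT, 89.2, 47.2 and 51.3 CPM in MC_Het and 0.328, 0.206, 4.81, 2.83 and 1.11 CPM in MA. In all of these the tumors lay at or under a few CPM. *ftr86*, a member of the fish-specific finTRIM family, read 20.7 ± 6.4 CPM in MC_WT, 6.85 ± 5.04 CPM in MC_Het and 0.531 ± 0.365 CPM in MA. *b4galt1*, a galactosyltransferase, read 13.4 ± 6.82 CPM in MC_WT, 4.47 ± 1.23 CPM in MC_Het and 0.894 ± 0.80 CPM in MA, and *rab11al*, which resembles a GTPase of recycling endosomes, read 117 ± 45.9 CPM in MC_WT, 41.5 ± 18.2 CPM in MC_Het and 2.62 ± 2.48 CPM in MA.

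Surface and regulatory genes completed the falling side. *cd44b* (ENSDARG00000089892), a copy of the hyaluronan receptor CD44, read 53.8, 67.1 and 44.6 CPM in MC_WT, 24.5, 19.6 and 14.7 CPM in MC_Het and 0.383, 0.823, 0.207, 0.101 and 0.973 CPM in MA, folds of 2.82 and 39.4. *runx2b* (ENSDARG00000059233), a transcription factor of bone-forming cells, read 56.8, 26.8 and 35.2 CPM in MC_WT, 17.1, 13.7 and 19.7 CPM in MC_Het and 0.492, 7.1, 1.92, 10.4 and 1.46 CPM in MA. It was the 1 stepwise gene among 17 fibroblast and osteoblast markers, whose summed CPM were 858 to 1757 in MC_WT, 975 to 4466 in MC_Het and 28.8 to 156 in MA. The summed list was thus not lower in MC_Het than in MC_WT, whereas *runx2b* was lower in every MC_Het library. That sum is weighted by its most abundant marker, *col1a2*, with a mean of 430 CPM in MC_WT and 1220 CPM in MC_Het. *klf4* (ENSDARG00000079922), an immediate early factor of epithelia, read 409, 482 and 391 CPM in MC_WT, 279.9, 298 and 191 CPM in MC_Het and 13.9, 2.67, 0.984, 9.03 and 12.3 CPM in MA, and was the 1 stepwise gene of 19 in the list of immediate early and dissociation stress genes. *gadd45aa* (ENSDARG00000043581), a gene induced by cell stress, read 137, 93.5 and 129.6 CPM in MC_WT, 62.4, 74.1 and 59.2 CPM in MC_Het and 34.5, 39.5, 10.7, 7.27 and 22.1 CPM in MA. In *gadd45aa* the tumors spread from 7.27 to 39.5 CPM, nearer to MC_Het than those of *klf4*. *gadd45aa* was the 1 stepwise gene of 15 in the list of p53 and its targets. That list summed to 3695 to 4584 CPM in MC_WT, 5772 to 9399 in MC_Het and 1074 to 2428 in MA. Of its 14 other genes tested, limma called 0 in MC_Het over MC_WT (2 at an unadjusted p under 0.05, 0 by edgeR and by DESeq2). Over all genes tested 0.864% were called higher and 0.571% lower at that step. In MA over MC_Het, 1 was called higher and 4 lower, where 18.1% of all genes tested were called higher and 24.2% lower. Of the 18 other immediate early genes tested 0 were called by limma in MC_Het over MC_WT (3 at an unadjusted p under 0.05, 0 by edgeR and 1 by DESeq2). DESeq2 called 253 higher and 253 lower at that step over all 14706 genes. In MA over MC_Het 13 were called lower, where 24.2% of all genes tested were. The immediate early list summed to 17771 to 26505 CPM in MC_WT, 24176 to 35060 in MC_Het and 2170 to 13118 in MA.

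The 2 falling genes without a gene name and with the largest steps were *si:ch1073-340i21.3*, at 321, 589 and 307 CPM in MC_WT, 28.4, 41.9 and 57.6 CPM in MC_Het and 1.75, 1.18, 3.99, 1.46 and 2.21 CPM in MA, and *CR855311.1*, a processed transcript, at 1783, 964 and 2423 CPM in MC_WT, 468, 329 and 277 CPM in MC_Het and 5.47, 4.78, 7.56, 26.1 and 8.49 CPM in MA. The steps were 9.53-fold and 4.81-fold from MC_WT to MC_Het, and 20.1-fold and 34.2-fold from MC_Het to MA. Also falling, and named after their values were seen, were a pair of polyubiquitin genes that the table calls *ubb* (120.0 ± 13 CPM in MC_WT, 45.8 ± 5.79 CPM in MC_Het and 23.5 ± 6.43 CPM in MA) and *UBB* (810.2 ± 73.2 CPM in MC_WT, 420.0 ± 12.4 CPM in MC_Het and 194 ± 65 CPM in MA). Ubiquitin genes hold near-identical repeats, so reads may have been placed on either copy. In both genes the 3 libraries of each melanocyte group lay close together. *alas1*, the first enzyme of heme synthesis and also named after its values were seen, read 1269, 353 and 1278 CPM in MC_WT, 299, 332 and 216 CPM in MC_Het and 146, 67.1, 107, 85.7 and 101 CPM in MA, with MC_WT2 close to the highest MC_Het library.

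Many zebrafish genes have a second copy from the genome duplication of teleost fish, and the rule looked at each copy alone. Of the 188 rising genes, 41 had a partner in the table whose name differs only in a closing a or b, and 13 of the 56 falling genes had one. No partner was itself stepwise. As 2.39% of the genes that could rise and 0.819% of those that could fall met the rule, few or none would be met among so few partners. Partners were not chosen by the rule, and their changes were taken from the limma fit of all genes. The look at partners was chosen after their values were seen, which the p-values here and in the next paragraph do not allow for. In MC_Het over MC_WT limma called 0.864% of all genes higher and 0.571% lower, so a count of 0 among a few partners is near those shares. Of 35 partners of rising genes tested, 0 were called in MC_Het over MC_WT (2 at an unadjusted p under 0.05, 0 by edgeR and by DESeq2). In MA over MC_Het 5 of them were called higher, 8 lower and 22 not called, against 18.1% higher and 24.2% lower over all genes. Of 12 partners of falling genes tested, 0 were called in MC_Het (2 at an unadjusted p under 0.05, 0 by edgeR and 1 by DESeq2), and in MA 3 were called higher, 6 lower and 3 not called. DESeq2 called 253 higher and 253 lower in MC_Het over all 14706 genes.

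Of the partners of the named genes, *hif1ab* (362 ± 122 CPM in MC_WT, 426 ± 89.1 CPM in MC_Het and 292 ± 59.3 CPM in MA) had a log2 change from MC_Het to MA of -1.16 (standard error 0.30, limma adjusted p = 0.0053), in the direction opposite to *hif1aa*. On the CPM as deposited that change was -0.55 (limma adjusted p = 0.12), and without MA3A it was -0.98 (limma adjusted p = 0.012), so it was not called in either. *mdka*, the other midkine, read 61.1, 74.5 and 195 CPM in MC_WT, 88.3, 101 and 81.1 CPM in MC_Het and 1.42, 0.771, 12.8, 2.42 and 14.1 CPM in MA. In MA it was called lower, -4.69 (standard error 0.63, limma adjusted p = 3.5e-05) on the log2 scale, with every tumor of *mdka* below every MC_Het library, while *mdkb* was higher in every tumor. *b4galnt1a* (7.63 ± 2.6 CPM in MC_WT, 12.4 ± 5.05 CPM in MC_Het and 0.511 ± 0.30 CPM in MA) and *alx4b* (2.84 ± 2.32 CPM in MC_WT, 11.3 ± 10.6 CPM in MC_Het and 1.14 ± 1.34 CPM in MA) were also called lower, with log2 changes of -3.42 (standard error 0.39, limma adjusted p = 6.9e-06) and -2.69 (standard error 0.60, limma adjusted p = 0.0022). *odf2a* (2.24 ± 2.35 CPM in MC_WT, 0.855 ± 0.939 CPM in MC_Het and 15.4 ± 8.24 CPM in MA) was called higher, by 2.71 (standard error 0.54, limma adjusted p = 0.00097), the direction of *odf2b*. For *coro1ca* (170.5 ± 37.1 CPM in MC_WT, 163 ± 41 CPM in MC_Het and 276 ± 98.3 CPM in MA) the log2 change was 0.11 (standard error 0.32, limma adjusted p = 0.8), which was not called. On the falling side *fabp7a* read 6.76, 9.93 and 7.53 CPM in MC_WT, 1.4, 0.0679 and 0.0555 CPM in MC_Het and 32.1, 18.6, 18.3, 173 and 19.7 CPM in MA. Its change from MC_Het to MA was 4.21 (standard error 0.63, limma adjusted p = 9.1e-05), opposite to *fabp7b*, and from MC_WT to MC_Het it was -2.96 (standard error 0.70, limma adjusted p = 0.054), not called. *cd44a* (575 ± 167 CPM in MC_WT, 591 ± 188 CPM in MC_Het and 4.75 ± 3.49 CPM in MA), *spi1b* (111 ± 64.3 CPM in MC_WT, 54.5 ± 31.4 CPM in MC_Het and 14.7 ± 17.9 CPM in MA) and *runx2a* (2.85 ± 0.463 CPM in MC_WT, 2.75 ± 1.81 CPM in MC_Het and 0.33 ± 0.285 CPM in MA) were called lower in MA, with log2 changes of -7.40 (standard error 0.44, limma adjusted p = 1e-08), -2.74 (standard error 0.57, limma adjusted p = 0.0013) and -1.67 (standard error 0.36, limma adjusted p = 0.0018), as their copies were. The methods name RSEM for counting, but the identifiers and whole reads of the table do not match that description, so how reads that match both copies were placed is uncertain.

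**Figure D4:**
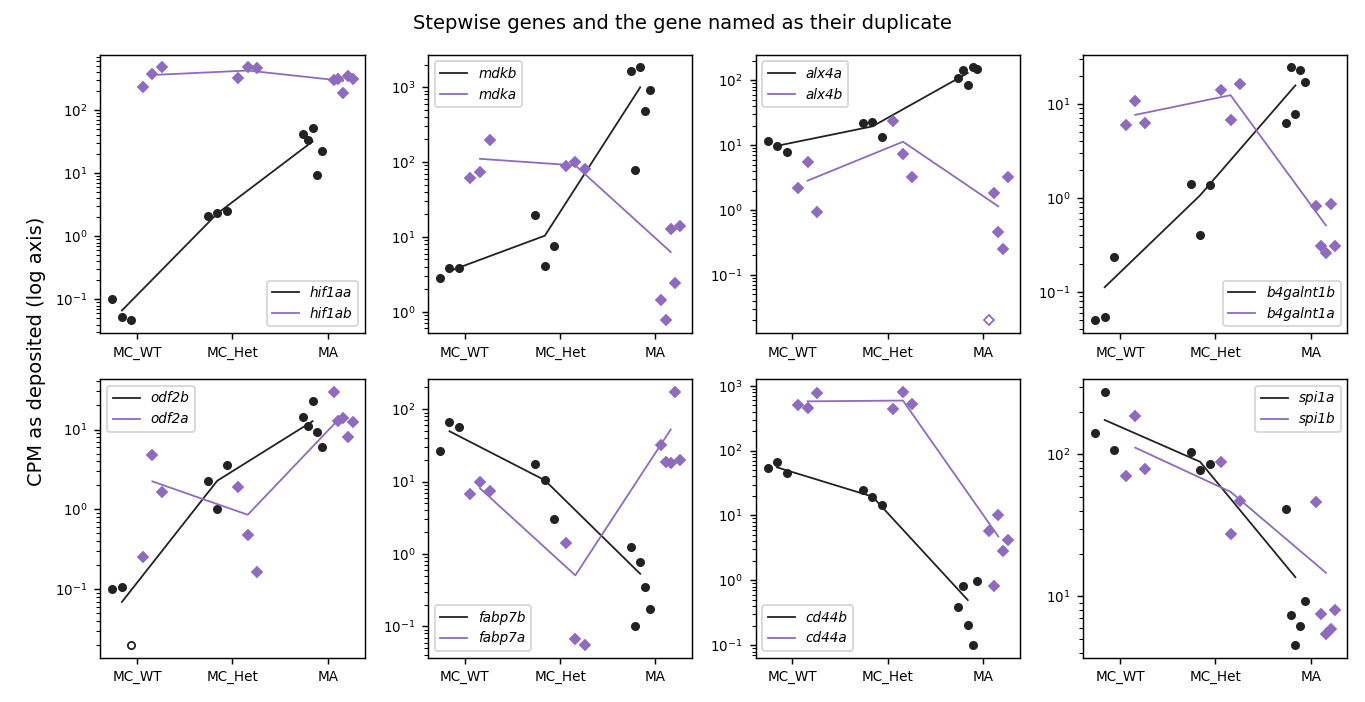
CPM as deposited, on log axes, of 8 stepwise genes (black circles) and the gene named as their duplicate (purple diamonds) in each library, with lines through group means and open symbols, at 0.02 CPM, for libraries at 0. From MC_Het to MA the means of *mdka* and *b4galnt1a* go down as *mdkb* and *b4galnt1b* go up, *fabp7a* goes up as *fabp7b* goes down, *cd44a* goes down with *cd44b* and *odf2a* goes up with *odf2b*; gene length is not corrected for, so levels are not to be compared between copies.

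Of 24 lists of pathway and cell type genes, 16 held no stepwise gene, where 2.39% of the genes that could rise and 0.819% of those that could fall met the rule. Among these were melanin synthesis (0 of 14), neural crest and pigment cell transcription factors (0 of 28), ERK feedback and output (0 of 17), the cell cycle (0 of 21), nucleolar ribosome biogenesis (0 of 23), purine synthesis (0 of 12), serine and amino acid supply (0 of 13), glycolysis and hypoxia (0 of 17), cholesterol synthesis (0 of 16), heat shock chaperones (0 of 16) and the matrix and its proteases (0 of 17). These lists hold only part of each process. Outside the nucleolar list, *rpf2*, a ribosome production factor (23.3, 56.4 and 222 CPM in MC_WT, MC_Het and MA), was rising. So was *cirh1a*, now named UTP4 (34.8, 63.9 and 136 CPM), which was lost on rescaling. Both were named after their values were seen. The kinase *cdk6* was rising outside the cell cycle list. A list without a stepwise gene could still differ between the groups. The summed melanin list read 432 to 1150 CPM in MC_WT, 1183 to 5062 in MC_Het and 4805 to 14380 in MA. Within it *pmela*, a melanosome fibril protein, had mean CPM of 142, 617 and 2153, and *tyrp1b*, a melanin enzyme, 420, 2201 and 5412, each with MC_Het above MC_WT in every library and with MA overlapping MC_Het. In MA over MC_Het, where 18.1% of all genes tested were called higher and 24.2% lower, the calls were 19 higher and 0 lower of 21 cell cycle genes, 13 and 0 of 23 nucleolar genes, 10 and 4 of 16 ERK genes, 9 and 5 of 20 crest factors, 7 and 1 of 16 chaperones and 6 and 1 of 13 melanin genes. They were 4 and 0 of 12 purine genes, 4 and 0 of 12 amino acid genes, 3 and 3 of 16 glycolysis genes, 0 and 6 of 16 cholesterol genes, 1 and 7 of 17 matrix genes and 5 and 1 of the 16 interferon genes beside *isg15*. In MC_Het over MC_WT none of the 11 lists without a stepwise gene had a limma call except cholesterol synthesis, with *pmvk* lower. Over all genes tested 0.864% were called higher and 0.571% lower at that step. Of the 166 genes tested in the other 10 lists, 22 had an unadjusted p under 0.05, and edgeR called 0 and DESeq2 3. At that step edgeR called 24 higher and 12 lower over all 14706 genes, and DESeq2 253 and 253. The share of all genes at an unadjusted p under 0.05 was not counted, so the 22 have no background. The median log2 change of the 16 cholesterol genes from MC_WT to MC_Het was -3.04 with this 1 call. Their summed CPM were 14301 and 18353 in MC_WT1 and MC_WT3 but 352 in MC_WT2, within the 284 to 1037 of MC_Het. The medians of the 10 other lists lay between -0.50 and 0.61. Of the remaining marker lists, erythrocyte (0 of 11), muscle (0 of 25), xanthophore (0 of 10), Schwann cell (0 of 14) and endothelial genes (0 of 13) held no stepwise gene, with 1 and 5, 2 and 16, 2 and 4, 2 and 7 and 0 and 8 calls higher and lower in MA. The fibroblast and iridophore lists beside their members had 0 and 13 and 2 and 4. Over all lists 2 other genes were called higher and 5 lower in MC_Het; beside *krt1-c5*, *pmvk* and the 4 antigen presentation genes this was *mpz*, a Schwann cell gene, which was higher.

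Gene length and position were not used by the rule. Length was compared with the background without a test, and position is only described. The median gene length was 2.89 kb in rising genes (0.339 to 17.9) and 2.44 kb over the 7880 genes with an MA mean of at least 10 CPM. In falling genes it was 2.01 kb (0.465 to 7.24), against 2.48 kb over the 6836 genes with an MC_WT mean of at least 10 CPM. On the reference gene order of the GRCz12tu assembly, which was used for neighbours only, 179 rising and 51 falling genes could be placed. Next to each other lay the rising pairs *selj* and *sh3glb1b*, and *mapkapk5* and *aldh2.1*, and the falling pair *ptgdsb.2* and *ptgdsb.1*. Of these, *selj*, *mapkapk5*, *aldh2.1* and *ptgdsb.1* were lost with the median of ratios. Within 5 places there were 11 rising pairs and 1 falling pair. Such pairs were not counted among other genes, so these numbers have no background. The nucleoporin *seh1l* lay 3 places from *psmg2*, a chaperone of proteasome assembly.

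Across the 5 tumors the highest value was a median 2.08 times the lowest in rising genes and 7.23 times in falling genes, and across the 3 tumors of the same fish 1.72 and 3.45 times. The coefficient of variation over MA had a median of 29.6% in rising genes, against 34.2% in all genes with an MA mean of at least 10 CPM. In falling genes it was 75.1%, against 36.1% in all genes with an MC_WT mean of at least 10 CPM. Since the rule allows no overlap between groups, it favours genes with little spread, so the rising value is partly set by the rule. The rule makes falling genes low in MA, with a median MA mean of 3.58 CPM against 46.9 CPM in rising genes, so these values are not matched for level and the 2 directions were not compared by a test. MA1 was the highest tumor in 24 of 56 falling genes and the lowest in 3, while MA2 was the highest in 5 and the lowest in 23. The higher values in MA1 included *spi1a*, *mpeg1.1* and *rac2*, and MA1 also had the highest summed leukocyte level of the tumors (629 CPM, others 150.0 to 324), whose part in these values was not tested. Among rising genes MA3A was the highest tumor in 69 of 188 and MA3C the lowest in 65, on the CPM as deposited. After median-of-ratios rescaling, the median over the rising genes was 37.6 in MA3A, 32.3 in MA3C and 31.8 in MA1, the lowest. Both MA1 and MA2 lay below all 3 tumors of the other fish in 17 rising genes and above them in 15.

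Over all rising genes no library dominated MC_Het: the highest of the 3 was MC_Het1 in 61, MC_Het2 in 63 and MC_Het3 in 64 of 188. The 6 with the largest lesser step were less even. MC_Het1 was the highest in *mkxa*, *cacnb4b*, *PLOD3*, *b4galnt1b* and *lrfn4a*, and MC_Het3 in *hif1aa*. In *mitfa* and *sox10* MC_Het1 was the highest MC_Het library and MC_Het3 the lowest. A link between these ranks was not tested. In MC_WT the highest library was MC_WT2 in 110 rising genes, against 35 for MC_WT1 and 43 for MC_WT3. On the CPM as deposited, MC_WT2 thus most often set the upper edge that MC_Het had to clear. These ranks depend on the scaling. Over the rising genes, the medians of MC_WT1, MC_WT2 and MC_WT3 were 7.08, 8.35 and 6.85 CPM as deposited. After median-of-ratios rescaling they were 10.3, 9.4 and 8.84, with MC_WT1 the highest. Without MC_WT2 512 genes were rising, among them 185 of the 188, and 136 were falling, among them 47 of the 56. Leaving out MC_Het1, MC_Het2 or MC_Het3 gave 344, 296 and 359 rising genes, and 138, 119 and 81 falling genes, since fewer libraries have to be separated. With MC_Het3 left out, 170 of the 188 and 50 of the 56 still met the rule. Leaving out a tumor changed the counts less, to between 197 and 211 rising and between 58 and 73 falling genes. In all 11 cases of a library left out, 132 rising and 39 falling genes met the rule. The margin was often small: between the nearest libraries of neighbouring groups it was under 1.1-fold at the first step in 50 rising and 13 falling genes, and at least 1.5-fold at both steps in 27 rising and 14 falling genes.

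**Figure D5:**
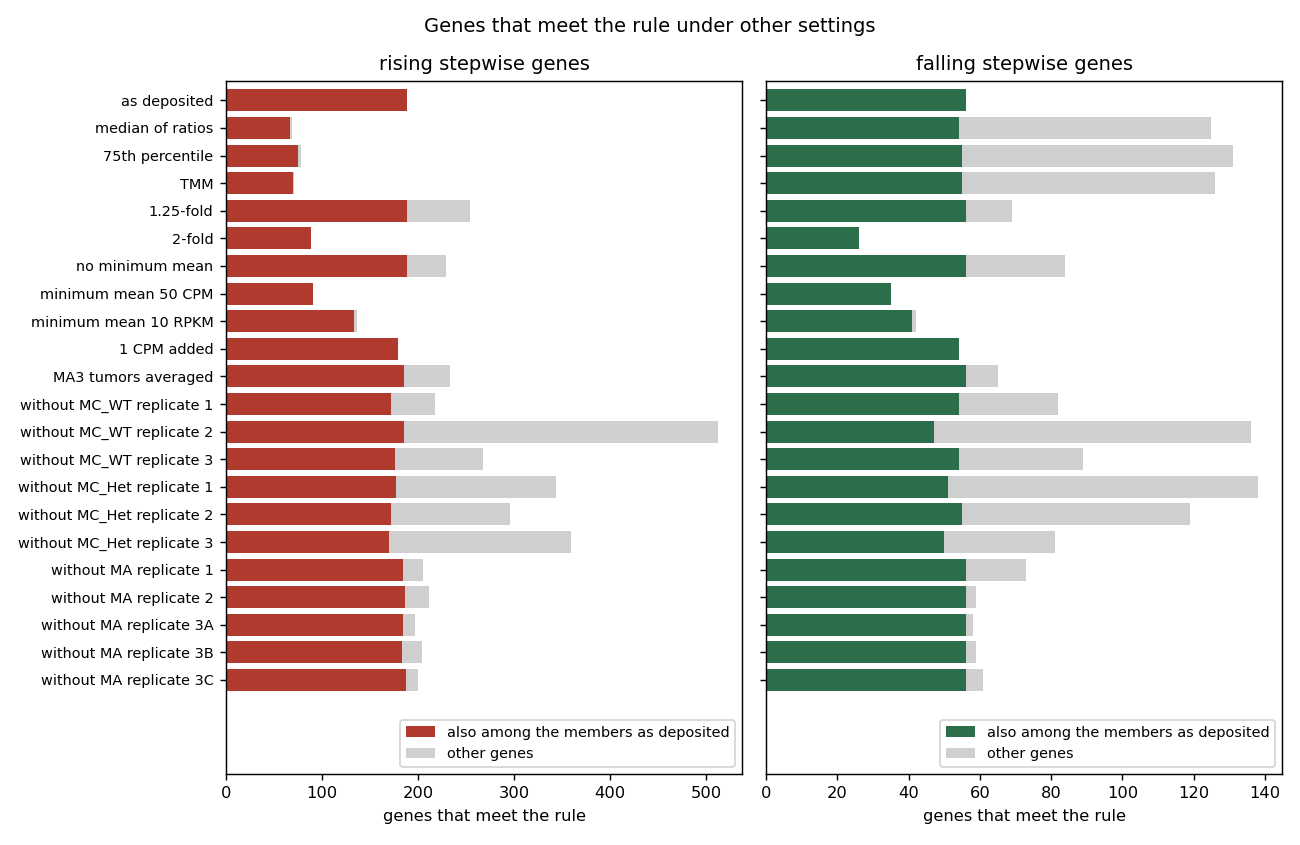
Number of genes that meet the rule as deposited, with other scalings, thresholds and minimum levels, with the tumors MA3A, MA3B and MA3C averaged, and with each library left out; coloured bars count genes that are among the 188 rising (left) or 56 falling (right) genes, grey bars others. Rescaling shortens the rising bars to 69 to 78 genes and lengthens the falling bars to 125 to 131, and leaving out MC_WT replicate 2 gives the longest rising bar.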

How the data were processed

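RNA was measured in 11 samples of sorted zebrafish cells: 3 MC_WT, 3 MC_Het and 5 MA. Per the labels and the study's methods, cDNA was made and amplified with the Clontech SMARTer kit and sequenced as single-end reads. The authors deposited 1 table of CPM, with each gene's reads scaled to the library total, and of RPKM, the same divided by gene length. The methods name STAR for alignment and RSEM with RefSeq annotation for counting, whereas the table holds Ensembl identifiers and whole reads, so which counter made it is uncertain. Strand is not given in the sources used here. Of 24874 rows, 236 identifiers stood on several rows with equal values, which left 24441 genes, and 21939 had a current name. The CPM were whole multiples of the value of 1 read (100% within 0.01 reads), which gave totals of 14718024 to 22612463 reads.

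The rule was applied to the CPM as deposited. The members and all lists were chosen with earlier results of these data known, and the 3 families (nucleoporins, transfer RNA modification, HOPS and CORVET) and the duplicate partners after their values were seen. Genes named were, in each direction, the 10 named genes and 2 unnamed genes with the largest lesser step, the 4 with the highest mean, the 3 nearest the threshold and up to 3 per list; any other gene was named after its values were seen. Genes outside the rule were fitted in R 4.3.3 with limma 3.58.1 on log2(CPM + 1), rescaled by the median of ratios, with at least 1 CPM in 3 libraries and all 3 groups in the fit. Calls took a Benjamini-Hochberg adjusted p below 0.05 over 14706 genes and a log2 change beyond 1, so folds of low genes are understated. The 2 comparisons share MC_Het. The p-values measure the spread between these samples, of which 3 tumors share a fish. Alternatives were DESeq2 1.42.0 and edgeR 4.0.16, run on reads recovered from the CPM, other scalings, filters and thresholds, and each library left out. Scripts were tested on simulated data. No column of the table was left unmapped. Some items are not reported here.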

Additional observations from a re-analysis of the deposited data

Results flagged for a closer look

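In 7 of the 47 stepwise genes named by the rule, 1 of the 5 tumors stood apart from the other 4 by Dixon's criterion. Chance alone meets this criterion in about 1 in 20 groups of independent values. Some of the tumors share a fish, and the genes were chosen by these same values, so that rate does not apply here. The 7 genes are therefore a description only, and the share among all genes is not given. MA3B was high in *CR855311.1* (26.1 CPM, others 4.78 to 8.49), in *ms4a17a.7* (1.51 CPM, others 0 to 0.273) and in *PLOD3* (30.7 CPM, others 11 to 15.0). MA1 was high in *spi1a* (40.9 CPM, others 4.56 to 9.24) and in *arhgap15* (1.69 CPM, others 0.619 to 0.725). MA3C was high in *apoeb* (253 CPM, others 13.1 to 79.6), and MA2 was low in *ptgdsb.1* (44.5 CPM, others 88.0 to 93.9). In each gene the tumor that stood apart still lay on the same side of every MC_Het library as the other tumors, which the rule requires.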

How the results depend on the processing

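As deposited 188 rising and 56 falling genes met the rule. The counts were 69 and 125 with the median of ratios, 78 and 131 with the 75th percentile, 71 and 126 with TMM, 88 and 26 at 2-fold, and 90 and 35 with a minimum of 50 CPM; leaving out 1 library gave 197 to 512 and 58 to 138. The limma calls were 127 higher and 84 lower in MC_Het than MC_WT, and 2661 higher and 3555 lower in MA than MC_Het. In MC_Het they were 38 and 24 among genes averaging 5 CPM or more, 24 and 12 with edgeR and 253 and 253 with DESeq2, with 37 lower on the CPM as deposited and 52 lower with fish as a random block. Leaving out 1 library gave 24 to 161 higher and 13 to 178 lower in MC_Het, with the fewest higher without MC_Het2, the fewest lower without MC_WT1 and the most of both without MC_WT2, and 2205 to 2659 higher and 3184 to 3577 lower in MA. On the CPM as deposited 4764 genes were called higher in MA and 2817 lower. The replicate block gave 109, 56, 2610 and 3525 calls. Same-numbered melanocyte libraries did not deviate together (correlations of -0.02, -0.12 and -0.06), so the numbers were not taken as pairs. *PAXBP1* reversed to a log2 ratio of MA to MC_Het of -0.017 with the median of ratios, and *coro1ca*, not called in any setting, was 0.72 on the CPM as deposited, and with 1 library left out it lay between -0.061 without MA2 and 0.28 without MC_Het2, being -0.051 without MC_Het3. The calls of the named partners other than *hif1ab* and *coro1ca* held in every alternative run, 18 or 19 each. The cause of these differences was not tested. Of 1315 other values of the named genes' steps 1288 moved by less than the spread between replicates, 26 moved by more and 1 reversed. Most of these genes were named for large steps or high means, so this does not describe all members. Of the 188 rising genes, 121 were lost with the median of ratios.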
